A study of Zea mays with 24 samples.

Results

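Leaf RNA of the maize inbred lines Mo17 and W23 was compared on a pilot Affymetrix maize GeneChip. The 12 arrays whose titles name Mo17 or W23 were taken, 6 per line, of 24 arrays in all; the others held the inbred lines B73 and Wf9. Both are inbred lines for which no genetic modification or treatment is named. Per the labels, each RNA came from leaves 3 to 5 of 6 to 10 greenhouse plants, so a value is a mean over pooled plants and leaf ages, and the age of the plants in days is not given in the sources used here. Plants were grown and RNA extracted 3 separate times for each line, and the 2 arrays that each RNA was applied to were averaged to 1 biological replicate (n = 3 per line).

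The array reads each transcript sequence with a set of short oligonucleotides, a probe set, and the deposited value is a signal on a linear scale. Differences were tested on log2(signal + 16), which understates the differences of dim probe sets. A call means an adjusted p under 0.05 in limma's moderated test of Mo17 minus W23, with Benjamini-Hochberg adjustment over all 8346 maize probe sets. A signal of 16.7 or less was taken as background. Folds are ratios of geometric means with background as the floor, and are written "at least" where all replicates of the dimmer line were at or below it. They are understated where only some were. The 3 signals given per line are those of biological replicates 1 to 3 in order, and a signed value that follows is a log2 difference, Mo17 minus W23, on the log2(signal + 16) scale.

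Inbred lines of maize carry different alleles at a large share of their genes, and members of a gene family can be present or expressed in one line and missing or silent in another. Leaves take up carbon through the C4 pathway, in which mesophyll cells fix carbon and bundle sheath cells hold the Calvin cycle. Aquaporins move water and small solutes across the plasma membrane (PIPs) and the vacuole membrane (TIPs), glutathione transferases conjugate toxins and herbicides, and benzoxazinoids are the indole-derived defence compounds of young grass leaves. A probe matches 1 fixed sequence, so on these arrays a lower transcript level and a sequence difference under the probes cannot be told apart, nor can fewer cells of a type and less RNA per cell.

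Arrays of the same RNA lay close together in Mo17 and W23. Over 3598 bright probe sets (mean signal of at least 100), the SD of the log2 differences between the 2 arrays of an RNA was 0.0962 to 0.213 in Mo17 and 0.114 to 0.136 in W23. Between Mo17 replicates it was 0.397 to 0.533, and between W23 replicate 1 and the other two it was 0.459 to 0.499. W23 replicates 2 and 3 differed by only 0.191 to 0.215, above their own array pairs (0.133 and 0.136), and were kept as separate replicates. Arrays of Mo17 and W23 were 0.876 to 0.989 apart, beyond all pairs within either line. The 2 arrays of B73 replicate 3, which enters the fit, were 0.866 apart, and its array 1 held all 213 zeros of the table. Without that array there were 1306 calls, of which 1132 were shared, and 2 named calls were lost (lim1 and ij1). The median signal of the 12 arrays was 51.2 to 62.8. Counting W23 replicates 2 and 3 as 1 replicate left 837 calls in place of 1159, of which 836 were shared.

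**Figure D1:**
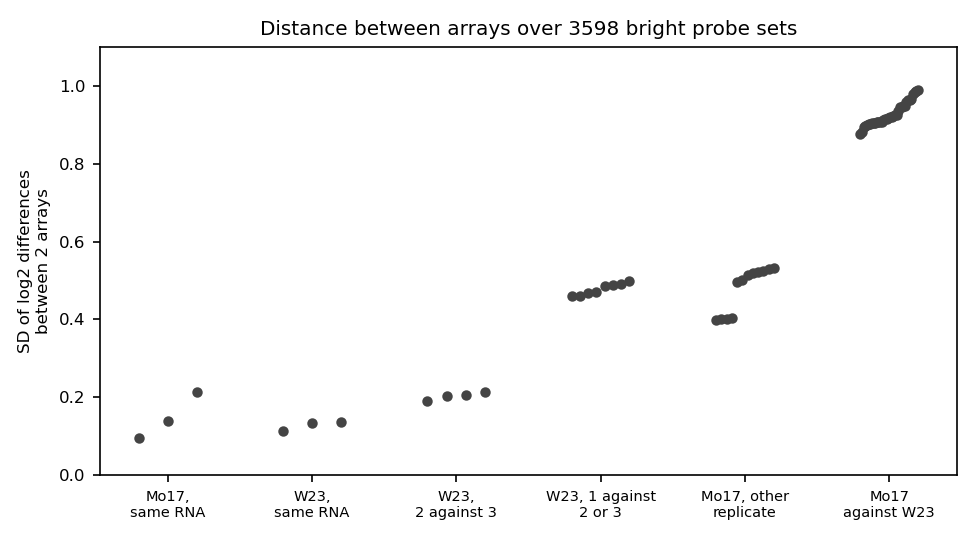
SD of the log2 differences (vertical axis, log2 units) between pairs of arrays over 3598 bright probe sets, with 1 point per pair. W23 replicates 2 and 3 lie between 0.191 and 0.215, below the other replicate pairs, and all pairs of Mo17 with W23 lie at 0.876 or more.

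The RNA read as green leaf in both lines. None of the 19 probe sets for C4 leaf markers was at background, and none passed the limma test (1 had an unadjusted p under 0.05, against 2080 of all 8346 probe sets). The brightest were pdk1, the pyruvate phosphate dikinase of the C4 cycle, with 11636 ± 1808 in Mo17 and 10949.9 ± 1067 in W23 (SD), and Cab-m7, a chlorophyll a/b-binding protein, with 11071 ± 1801 in Mo17 and 10801 ± 926 in W23. All 19 seed marker probe sets were at background in both lines, and none passed. Of 10 pollen and anther markers 7 were at background, and the summed signal of the list was 4097 to 4602 in Mo17 and 5342 to 6305 in W23. Most of it came from ADF3, an actin depolymerising factor, with 4176 ± 284 in Mo17 and 5519 ± 508 in W23 (SD), which did not pass. The sum therefore mostly follows this 1 member and does not measure pollen or anther RNA. The only call of that list, 1 of 3 probe sets of mgs1 (-0.51), was at background in both lines. Of 5 root markers 2 were at background, and their sum was 361 to 576 in Mo17 and 624 to 1034 in W23, without overlap. Most of it came from mir3, also on the defence list, with 443 ± 112 in Mo17 and 672 ± 136 in W23 (SD). This sum too mostly follows 1 member, which did not pass, and does not measure root RNA. None of the 5 root markers passed (1 had an unadjusted p under 0.05), and 1 did with W23 replicates 2 and 3 counted once and without W23 replicate 3. The part of these 2 lists in the results below was not tested.

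Of 8346 probe sets, 1159 (13.9%) differed between the lines. Mo17 was higher in 593 (7.11%) and lower in 566 (6.78%). A difference of at least 2-fold on the log2(signal + 16) scale was reached by 318 of the calls higher in Mo17 (3.81% of those tested) and by 300 lower in Mo17 (3.59%), together 618 (7.4%). At least 4-fold was reached by 99 and 97, and at least 16-fold by 8 and 12. The median size of a called difference was 1.04 on the log2 scale, against 0.18 over all probe sets, and the median signed difference over all was 0.02. The replicates of the lines did not overlap in 2800 probe sets (33.5%), among them 1155 of the 1159 called. A gene name was given for 852 probe sets, and 105 of these (12.3%) were called, 47 higher in Mo17 (5.52%) and 58 lower (6.81%). With W23 replicates 2 and 3 counted once, 85 of the 105 calls were kept, and all 105 kept their sign.

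**Figure D2:**
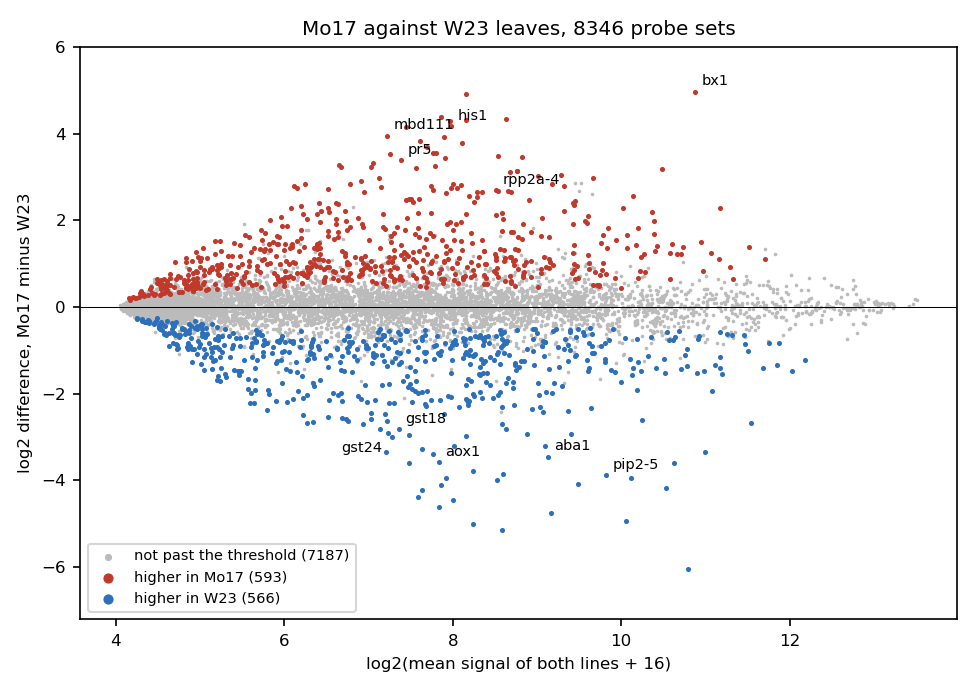
Difference of log2(signal + 16) between the lines (vertical axis, Mo17 minus W23) against the log2 of their mean signal plus 16 (horizontal axis), with 1 point per probe set. The 593 red points are called higher in Mo17 and the 566 blue points higher in W23, and the 5 named genes with the largest difference in each direction are labelled.

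The largest difference among named genes was in bx1, the enzyme that makes indole for the first step of benzoxazinoid synthesis. Its signal was 3660.4, 3734 and 3465 in Mo17 and 141, 101 and 69.6 in W23. All Mo17 replicates were far above all W23 replicates, 36.4-fold apart (log2 difference of 4.97 ± 0.55 (SE) at an adjusted p of 5.11e-05). It was 251 ± 256 in B73 and 29.5 ± 16.3 in Wf9, so Mo17 had the highest of the 4 means. No other gene of this pathway was in the list for it.

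Most aquaporin calls were lower in Mo17. Of 34 probe sets for 28 genes, 3 were higher and 10 lower in Mo17 (38.2% called, against 12.3% of named probe sets), 21 did not pass, and the median log2 difference was -0.14, against 0.02 over all probe sets. NIP3-1 accounted for 3 of the lower calls and PIP2-6 for 2, while the 3 higher calls were of different genes. With W23 replicates 2 and 3 counted once, 2 were higher and 10 lower, and without W23 replicate 2 it was 2 and 8.

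The plasma membrane aquaporin pip2-5 had 131, 61 and 119 in Mo17 and 1903, 1542 and 1588 in W23. Every W23 replicate was high and every Mo17 replicate low, 17-fold apart (log2 difference of -3.87 ± 0.24 (SE) at an adjusted p of 3.94e-07). B73 and Wf9 split in the same way, with 1567 ± 169 in B73 and 101 ± 20.8 in Wf9.

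PIP2-6, of the same subfamily, had 118, 63.5 and 96.8 in Mo17 and 431, 480.2 and 447 in W23, also without overlap. It was 5.04-fold lower in Mo17 (log2 difference -2.14 ± 0.32, adjusted p = 5.98e-04), and its second probe set gave -2.06 ± 0.22. TIP1-1, a vacuole membrane aquaporin, had 533, 323 and 597 in Mo17 and 1788, 1806 and 1868 in W23, with a log2 difference of -1.92 ± 0.20 (SE) at an adjusted p of 3.57e-05.

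PIP1-3 had 233, 209 and 195 in Mo17 and 456, 722 and 680.2 in W23 on its called probe set, 2.86-fold lower in Mo17 with no overlap. Its other 2 probe sets had log2 differences of -0.85 and -0.19 and did not pass. PIP2-4 was lower in Mo17 (-0.92), and this call was lost in 1 alternative, with W23 replicates 2 and 3 as 1 and the 2 lines fitted alone. TIP2-2 was also lower (-0.66), a call lost in 8 alternatives, among them without Mo17 replicate 3 and without W23 replicate 2 or 3. NIP3-1, of the NOD26-like subfamily, was lower on all 3 probe sets, with log2 differences of -1.11, -1.08 and -0.50, the last at or near background and lost in 7 alternatives, among them without Mo17 replicate 2 or 3 and without W23 replicate 1 or 2.

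The aquaporins higher in Mo17 included the PIP2 genes ZmPIP2-3 and ZmPIP2-2. ZmPIP2-3 had 511, 483 and 742 in Mo17 and 114, 114 and 125 in W23, and the Mo17 replicates were all above the W23 ones, by 4.84-fold (log2 difference 2.13 ± 0.28, adjusted p = 1.84e-04). ZmPIP2-2 had 1049, 785 and 697 in Mo17 and 270.0, 254 and 251 in W23, a 3.22-fold difference without overlap (adjusted p = 0.0136), and its call was lost without Mo17 replicate 1 and with technical array 1 alone. Lsi1, named for the silicon influx channel of rice, had 1233, 905 and 933 in Mo17 and 753, 416 and 379 in W23, and W23 replicate 1 lay nearest to Mo17. Its call (log2 difference 1.02) was lost in 5 alternatives, among them without Mo17 replicate 1 and without W23 replicate 2 or 3. TIP1-2, also on the root list, had 21.1, 17.6 and 22.4 in Mo17 and 183, 43.2 and 40.4 in W23 and did not pass (adjusted p = 0.0659). Its W23 replicate 1 was far above the other two.

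**Figure D3:**
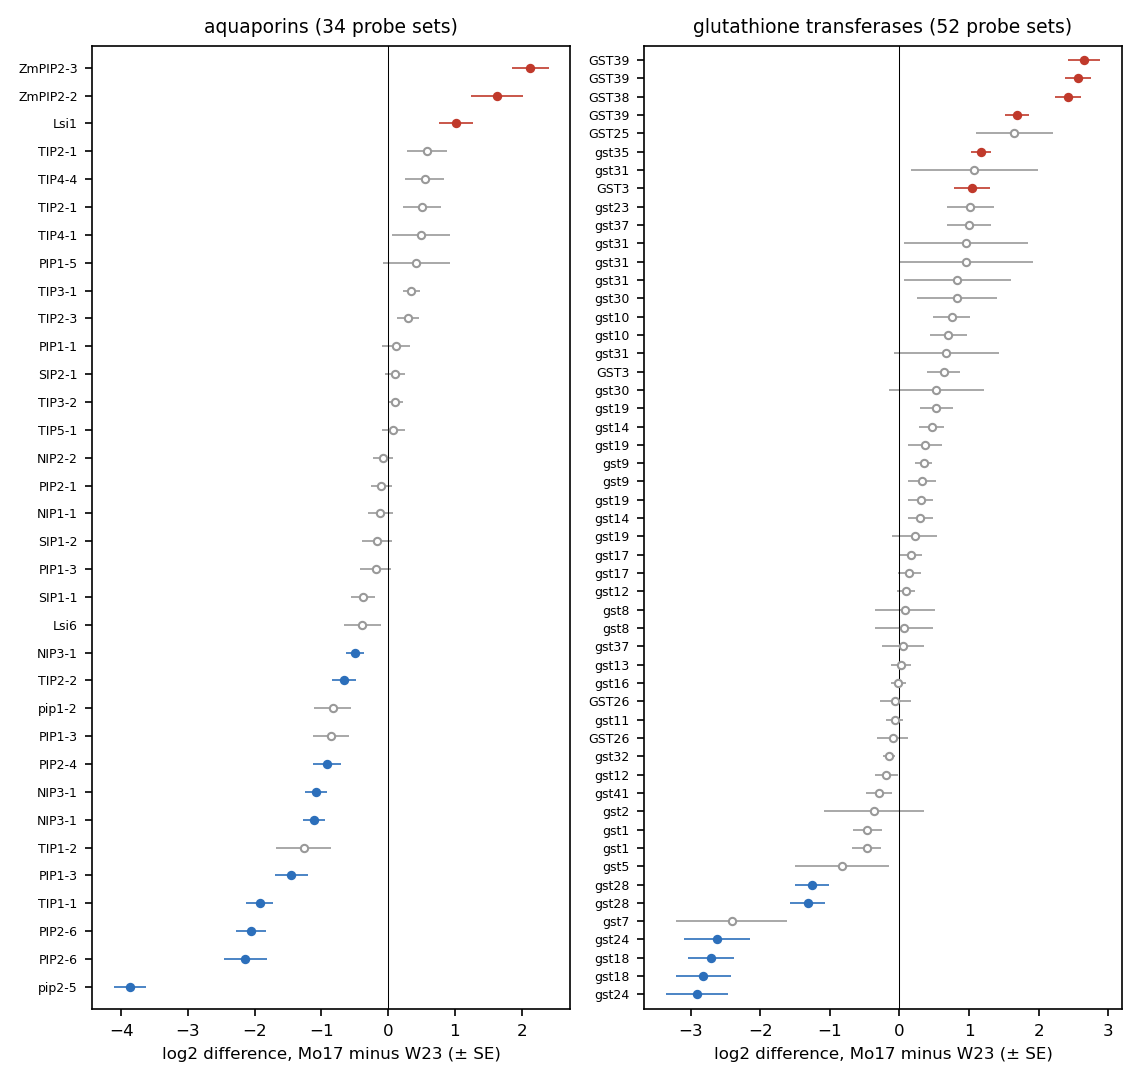
Log2 difference, Mo17 minus W23, with its SE (horizontal axis, log2 units) for each probe set of the aquaporins (left) and glutathione transferases (right), ordered by size. Filled red and blue points passed the test and open grey points did not, and a gene with several probe sets appears several times.

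Glutathione transferases were split between the lines. Of 52 probe sets for 29 genes, 6 were higher and 6 lower in Mo17 (23.1% called, against 13.9% of all and 12.3% of the named probe sets), 40 did not pass, and the median log2 difference was 0.26. GST39 had 577, 779 and 744 in Mo17 and 84.2, 110.3 and 98.8 in W23. Every Mo17 replicate was above every W23 replicate, by 7.19-fold (log2 difference of 2.65 ± 0.23 (SE) at an adjusted p of 7.43e-06), and its other 2 probe sets, which carry a suffix for shared probes, gave 2.57 and 1.69.

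GST38 had 285, 374 and 228 in Mo17 and 48.7, 41.4 and 34.9 in W23, 7.06-fold apart (log2 difference of 2.42 ± 0.19 (SE) at an adjusted p of 3.33e-06). The dimmer gst35 had 35.5, 47.1 and 36.6 in Mo17 and 10, 10.8 and 6.1 in W23 and was at background in W23, at least 2.31-fold below Mo17. GST3, a herbicide-detoxifying enzyme in maize, was higher in Mo17 (1.04) on 1 of its 2 probe sets, and this call was lost in 5 alternatives, among them without Mo17 replicate 2 and without W23 replicate 2 or 3. With W23 replicates 2 and 3 counted once, the list had 5 higher and 6 lower.

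In the other direction, gst24 had 16.7, 24.3 and 14 in Mo17 and 149, 305 and 299.5 in W23. Mo17 lay at or near background in every replicate, and W23 replicate 1 was lower than the other two, without overlap between the lines. The 12.4-fold difference is understated (log2 difference -2.91 ± 0.45, adjusted p = 7.07e-04), and its second probe set gave -2.62. The gst18 probe set had 47.5, 5.15 and 30.7 in Mo17 and 345, 241 and 220.2 in W23, with Mo17 replicate 2 below background and all W23 replicates high. Its log2 difference was -2.82 ± 0.39 (adjusted p = 3.24e-04), and the second probe set gave -2.71. Both probe sets of gst28 were lower in Mo17 (-1.32 and -1.26). The gst7 probe set, named after its values were seen, had 56.4, 57.5 and 204 in Mo17 and 244, 759 and 858 in W23 and did not pass (adjusted p = 0.066). Its replicates differed widely within each line.

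Among 14 probe sets for antioxidant and redox proteins, 2 were higher and 2 lower in Mo17 (28.6% called, against 13.9% of all probe sets). The median log2 difference was 0.28. The ascorbate peroxidase apx2, which removes hydrogen peroxide, had 1483, 1308 and 857 in Mo17 and 319, 276 and 303 in W23. Mo17 was above W23 in all replicates, with replicate 3 the lowest of Mo17, 3.96-fold apart (log2 difference of 1.93 ± 0.22 (SE) at an adjusted p of 7.30e-05). The nucleoredoxin nrx1, a thioredoxin-fold protein, had 824, 667 and 395 in Mo17 and 279.8, 135 and 130.4 in W23 and was 3.53-fold higher in Mo17 (adjusted p = 0.00964), with the lowest Mo17 replicate not far above W23 replicate 1. The thioredoxin h gene trh2 went the other way, with 1449, 1094 and 1024 in Mo17 and 3251, 3623 and 3558 in W23, 2.96-fold lower in Mo17 (log2 difference -1.55 ± 0.19, adjusted p = 9.92e-05), and its second probe set gave -1.47.

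Of 24 probe sets for mitochondria and respiration, 1 was higher and 2 were lower in Mo17 (12.5% called, against 13.9% of all). The alternative oxidase aox1, which passes electrons from ubiquinol to oxygen without pumping protons, had 33.5, 16.6 and 11.5 in Mo17 and 391.8, 405 and 416 in W23. All W23 replicates were close together and high, and 2 of the 3 Mo17 replicates were at or below background, so the 19.2-fold difference is understated (log2 difference of -3.57 ± 0.30 (SE) at an adjusted p of 5.34e-06). Its mean signal was 246 ± 61.9 in B73 and 26.3 ± 17.5 in Wf9. The mitochondrial porin vdac1a had 124, 169.9 and 201 in Mo17 and 449, 440.0 and 443 in W23, again without overlap (log2 difference -1.37 ± 0.22, adjusted p = 9.68e-04). The aldehyde dehydrogenase aldh5 had 160.0, 108 and 109 in Mo17 and 22.7, 22.5 and 32.7 in W23 and was 4.83-fold higher in Mo17 (adjusted p = 0.0341). This call was lost in 9 alternatives, among them the loss of any single replicate of either line, and with W23 replicates 2 and 3 counted once its adjusted p was 0.0856.

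Of 72 probe sets for chromatin proteins and histones, 5 were higher and 4 lower in Mo17 (12.5% called, against 13.9% of all). The median log2 difference was -0.02. The 4 lower ones became 2 with W23 replicates 2 and 3 counted once, and 2 without W23 replicate 2. The gene named his1 on the array had 520.3, 499 and 372 in Mo17 and 8.8, 11.5 and 10.6 in W23. All W23 replicates were at background and all Mo17 replicates high, at least 27.4-fold apart (log2 difference of 4.17 ± 0.36 (SE) at an adjusted p of 6.41e-06). The methyl-CpG-binding domain gene mbd111 had 294, 289 and 211 in Mo17 and 0.850, 2.4 and 2.6 in W23, at least 15.7-fold higher in Mo17 with an adjusted p of 7.37e-08. Its mean was 249 ± 42.4 in B73 and 294 ± 45.7 in Wf9, so of the 4 lines only the W23 mean was at background.

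A second gene of that family, mbd106, was above background in both lines, with 535, 544 and 629.8 in Mo17 and 326, 322 and 313 in W23, and was higher in Mo17 (0.80). That call was lost with technical array 1 alone. The vip3 probe set, whose Arabidopsis namesake is a WD-repeat protein of the Paf1 complex, had 152, 162 and 152 in Mo17 and 32.7, 30.4 and 32.5 in W23, 4.88-fold higher in Mo17 with little spread in either line (log2 difference 1.84 ± 0.17, adjusted p = 1.42e-05). A second probe set of vip3, with a shared-probe suffix, gave 1.54. The linker histone his1a had 732, 571 and 568 in Mo17 and 2062, 1686 and 1502 in W23, 2.81-fold lower in Mo17 without overlap. Its other probe sets were 2.31-fold and 2.17-fold lower, the last lost in 9 alternatives, which include the loss of any single replicate. The core histone his2b5 was lower in Mo17 (-0.66), at or below background in Mo17, and was lost in 6 alternatives, among them without Mo17 replicate 2 or 3 and without W23 replicate 1 or 2. Its other named probe set gave -0.51 and did not pass. The unnamed Zm3.14497.1.A1_at and Zm3.14497.1.A1_x_at share the number of the called his2b5 probe set (Zm1.14497.1.A1_at). Both were called higher in Mo17 (2.14 and 1.87), and whether they read the same gene was not tested.

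Of 58 probe sets for translation, 2 were higher and 3 lower in Mo17 (8.62% called, against 13.9% of all). These counts were unchanged with W23 replicates 2 and 3 counted once. The acidic ribosomal P2 protein gene rpp2a-4 had 663, 389 and 810.0 in Mo17 and 66.3, 82.4 and 85.3 in W23, 7.62-fold higher in Mo17 with a log2 difference of 2.70 ± 0.30 (SE) at an adjusted p of 5.85e-05. A related gene, rpp2b, was 2.16-fold higher in Mo17, with a mean signal of 4538 ± 501 in Mo17 and 2096 ± 91.8 in W23. The cap-binding subunit eIFiso4E, eif7, had 26.9, 22.1 and 24.8 in Mo17 and 202, 223 and 189 in W23. Every Mo17 replicate was just above background and every W23 replicate well above it, an 8.36-fold difference (log2 difference of -2.44 ± 0.18 (SE) at an adjusted p of 1.67e-06), and its second probe set gave -2.21. The ribosomal protein gene rpl39 had 82.8, 61.3 and 97.1 in Mo17 and 313, 446 and 412 in W23, 4.9-fold lower in Mo17 without overlap (adjusted p = 7.58e-05).

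**Figure D4:**
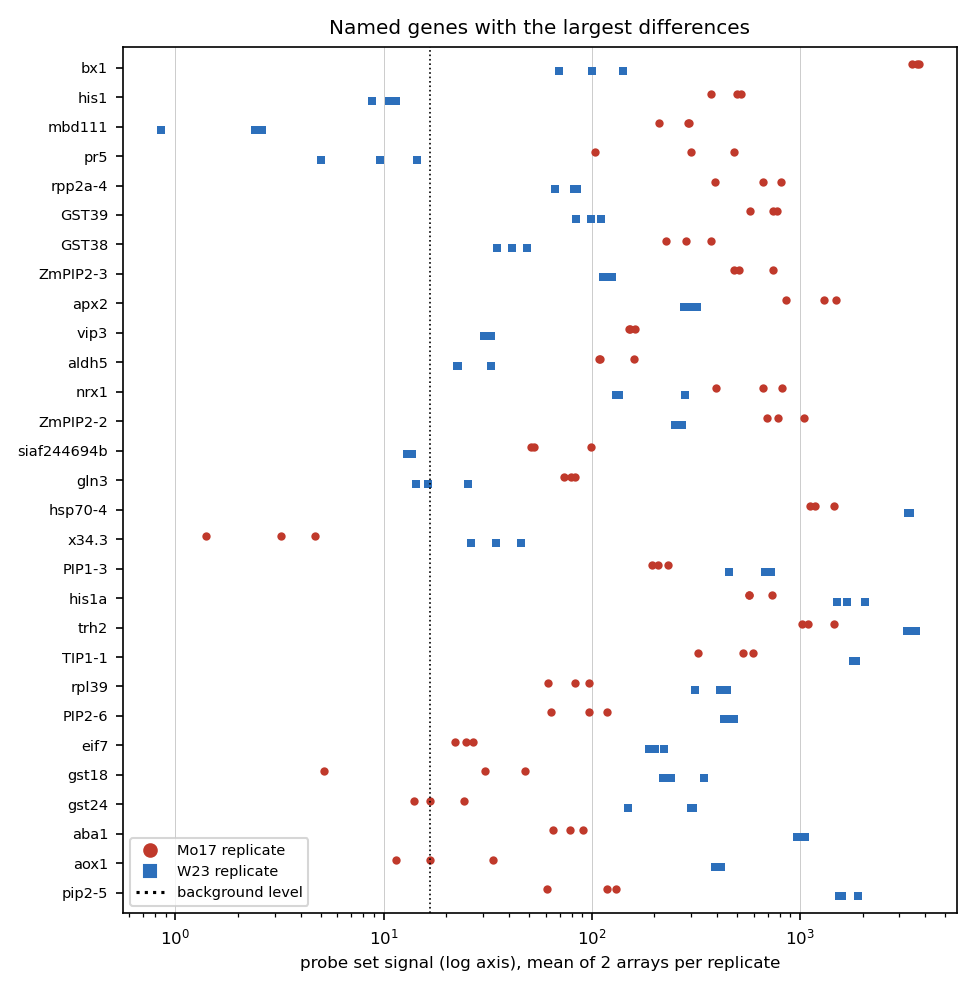
Signal of each biological replicate (horizontal log axis, mean of 2 arrays), with Mo17 as red circles and W23 as blue squares. Shown are the reported genes among the named ones with the largest called difference in each direction. They were picked from calls whose replicates did not overlap, so the lack of overlap follows from that choice. The dotted line is the background signal of 16.7.

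In the small list for abscisic acid and drought, 1 of 5 probe sets was higher and 2 were lower in Mo17 (60% called, against 13.9% of all). The 2 lower ones are both probe sets of aba1, also named asr1, of the ABA-, stress- and ripening-induced family. The first had 90.3, 78.6 and 65 in Mo17 and 972, 1056 and 996 in W23. Mo17 was low and W23 high in every replicate, 13-fold apart (log2 difference of -3.45 ± 0.18 (SE) at an adjusted p of 1.54e-07), and the probe set with a shared-probe suffix gave -3.22. The mean was 3337 ± 517 in B73 and 1842 ± 348 in Wf9, so Mo17 was the lowest of the 4 means. The DRE-binding transcription factor dbf1 had 554, 495 and 546 in Mo17 and 110.5, 264 and 286 in W23 and was higher in Mo17 (1.31), a call that was lost without any 1 of the Mo17 replicates and without W23 replicate 1, which was the lowest of W23. The other probe set of dbf1 gave 0.90 and did not pass.

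Jasmonate and ethylene synthesis had 0 probe sets higher and 3 lower of 10 (30% called, against 13.9% of all probe sets). They were 2 of the 4 probe sets of aoc1 (-0.77 and -0.57) and that of ACO31 (-1.18). The aoc1 gene encodes the allene oxide cyclase of jasmonate synthesis, and ACO31 is named as an ACC oxidase of ethylene synthesis. The other aoc1 probe sets did not pass, and 1 of them gave -0.06. Both probe sets of lox1, of the same list, had positive differences (0.63 and 0.48) and did not pass. The ACO31 call was lost without Mo17 replicate 3 and without W23 replicate 1. The first of the aoc1 calls was lost in 1 alternative, with W23 replicates 2 and 3 as 1 and the 2 lines fitted alone, and the second in 9, among them without Mo17 replicate 1 or 2 and without any 1 W23 replicate. Of 11 probe sets for the other hormones, 0 were higher and 3 lower in Mo17 (27.3% called). The 3 were of the cytokinin response regulators RR5 (-1.24 and -0.94) and RR4 (-0.62). The other probe set of RR4 gave -0.33 and did not pass. RR5 had 105, 44.2 and 69.2 in Mo17 and 201, 166 and 192 in W23 on the first probe set, whose call was lost without Mo17 replicate 2, the lowest of Mo17. The second RR5 call was lost in 12 alternatives, among them without Mo17 replicate 2 or 3 and without any 1 W23 replicate, and that of RR4 in 7, the latter among them without Mo17 replicate 2 or 3 and without W23 replicate 1 or 3. Without W23 replicate 3, 1 of these 3 calls remained.

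Defence and wound proteins had 4 of 14 probe sets higher in Mo17 and 0 lower (28.6% called, against 13.9% of all probe sets). The median log2 difference was 0.23. The thaumatin-like protein gene pr5 had 480.1, 103 and 299 in Mo17 and 14.4, 5.0 and 9.65 in W23. Mo17 replicates ranged widely but all lay above W23, which was at background, at least 14.6-fold apart (log2 difference 3.39 ± 0.73, adjusted p = 0.00737). With W23 replicates 2 and 3 counted once its adjusted p was 0.0301. The other 3 calls were probe sets of the cysteine protease inhibitor cpi2, between 0.83 and 1.06, of which that with 0.87 was lost in 6 alternatives, among them without Mo17 replicate 3 and without W23 replicate 2 or 3. The remaining probe set of cpi2 gave 0.34 and did not pass.

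The list for starch and sucrose metabolism had 2 calls higher in Mo17 and 2 lower, of 20 probe sets (20% called, against 13.9% of all probe sets). Both higher ones were of the acid invertase ivr2, which splits sucrose. The first had 2838, 2658 and 1391 in Mo17 and 679, 979 and 727 in W23 and the second 2872, 2908 and 1594 in Mo17 and 790.1, 1134 and 789 in W23. Mo17 replicate 3 was the lowest of Mo17 on both and still above W23, with log2 differences of 1.46 and 1.40. Both calls were lost without Mo17 replicate 1 and without Mo17 replicate 2, and the second also without W23 replicate 1 or 3. The lower ones were sh2, which encodes the ADP-glucose pyrophosphorylase large subunit for starch synthesis, with 4.65, 5.15 and 2.25 in Mo17 and 23.4, 21.9 and 19.6 in W23, and sugary2, a starch synthase, with 5.8, 2.4 and 4.5 in Mo17 and 21.1, 14.2 and 9.25 in W23. Both stood at or just above background in W23. The sugary2 call was lost in 6 alternatives, among them without any 1 of the Mo17 replicates and without W23 replicate 1 or 2. The other probe set of sugary2 had a log2 difference of 0.06 and did not pass.

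Nitrogen assimilation had 3 of 10 probe sets higher in Mo17 and 0 lower (30% called, against 13.9% of all probe sets). All 3 were of gln3, a cytosolic glutamine synthetase. The first had 73.2, 79.3 and 82.8 in Mo17 and 25.4, 16.3 and 14.2 in W23, 4.1-fold higher in Mo17, understated because W23 lay partly at background (log2 difference of 1.46 ± 0.15 (SE) at an adjusted p of 2.86e-05). The other 2 gave 1.37 and 0.71, the latter lost in 8 alternatives, among them without Mo17 replicate 1 or 3 and without W23 replicate 2 or 3. Another glutamine synthetase, gln5, had 1698, 1570.5 and 1222 in Mo17 and 821, 923 and 978 in W23 and lay at the edge of the threshold without passing it (log2 difference 0.70).

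Among photosynthesis genes, none of 8 probe sets for C4 mesophyll enzymes and none of 8 for bundle sheath and Calvin cycle enzymes passed in the limma test (1 and 0 had an unadjusted p under 0.05), against 13.9% called over all probe sets. The median log2 differences were 0.00 and -0.16, and all 8 of the second list had differences below 0, from -0.51 to -0.01. The Rubisco small subunit rbcs1 had 6724, 7524 and 6999.5 in Mo17 and 8772, 7654 and 8135 in W23. The values were close, though each W23 replicate was above each Mo17 replicate (adjusted p = 0.685). Of 16 probe sets for light harvesting and photosystems, 1 was lower in Mo17, the ferredoxin fdx3, an electron carrier, with 743, 454 and 645 in Mo17 and 1452, 1747 and 1642 in W23 (log2 difference of -1.40 ± 0.26 (SE) at an adjusted p of 0.00285). Missing the threshold is no evidence of equal levels.

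Of 34 probe sets for the cell cycle and signalling, 3 were higher and 1 was lower in Mo17 (11.8% called, against 13.9% of all). Of these, the higher ones are described here, namely the mitogen-activated protein kinase MPK4 (1.01), the kinase-named pk3 (1.02) and pcna2, a replication clamp (0.57), with a mean signal of 21.3 ± 5.8 in Mo17 and 8.97 ± 1.91 in W23. MPK4 was lost without Mo17 replicate 1 or 2 and without W23 replicate 1, pk3 without Mo17 replicate 1, and pcna2 in 4 alternatives, among them without W23 replicate 2.

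The chaperone gene hsp70-4 was the 1 call among 15 probe sets for heat shock proteins (6.67% called, against 13.9% of all probe sets). It had 1460.0, 1118 and 1182 in Mo17 and 3392, 3317 and 3332 in W23, and the W23 replicates were nearly equal and all above Mo17, by 2.69-fold (log2 difference -1.41 ± 0.17, adjusted p = 9.51e-05). The cytoskeleton list had 2 of 26 higher, both of the alpha-tubulin tua3 (0.94 and 0.67), and 1 lower, the profilin PRO4 (-0.58), so 11.5% were called. The PRO4 call was lost in 7 alternatives, among them with W23 replicates 2 and 3 counted once, without Mo17 replicate 2 or 3 and without any 1 W23 replicate. The second tua3 call was lost without Mo17 replicate 2 or 3 and without W23 replicate 1. The median log2 difference of the list was -0.48, and tub3, a beta-tubulin, had 884, 939.5 and 1219 in Mo17 and 2196, 2463 and 2189.6 in W23 without passing (adjusted p = 0.0614).

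Of 21 probe sets for the cell wall and lignin, 1 was lower in Mo17 (4.76% called, against 13.9% of all). It was the cellulose synthase CesA-3 (-0.76), lost in 1 alternative, with W23 replicates 2 and 3 as 1 and the 2 lines fitted alone. The xyloglucan-modifying gene xet1 had 133, 1789 and 490.1 in Mo17 and 283, 90.6 and 81.1 in W23. Mo17 replicate 2 was far above the others, the lines overlapped, and it did not pass (adjusted p = 0.142). Of 2 probe sets for lipid and wax, gl8, a reductase of fatty acid elongation for leaf wax, was lower in Mo17, with 144, 147 and 167 in Mo17 and 435, 435 and 353 in W23 (log2 difference of -1.33 ± 0.20 (SE) at an adjusted p of 5.21e-04). In amino acid and polyamine synthesis, 2 of 5 were higher (40% called, against 13.9% of all probe sets). They were bx1 and lkrsdh1, the bifunctional enzyme of lysine breakdown. The lkrsdh1 probe set had 177, 163 and 64.8 in Mo17 and 49.9, 36.5 and 44.2 in W23, with Mo17 replicate 3 low, and its call was lost in 7 alternatives, among them without Mo17 replicate 1 or 2 and without W23 replicate 2 or 3.

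No probe set passed among 32 for glycolysis and fermentation or among 25 for leaf and floral developmental regulators, of which 16 were at background in both lines. Over all probe sets 13.9% were called. At an unadjusted limma p under 0.05 the 2 lists had 6 and 4, against 2080 of all 8346 probe sets. The glycolysis list had a median log2 difference of 0.24, and without W23 replicate 2 it had 1 call. The single probe set for chlorophyll and pigments, vp9, had 328, 363 and 431 in Mo17 and 293, 363 and 403 in W23, with overlap.

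**Figure D5:**
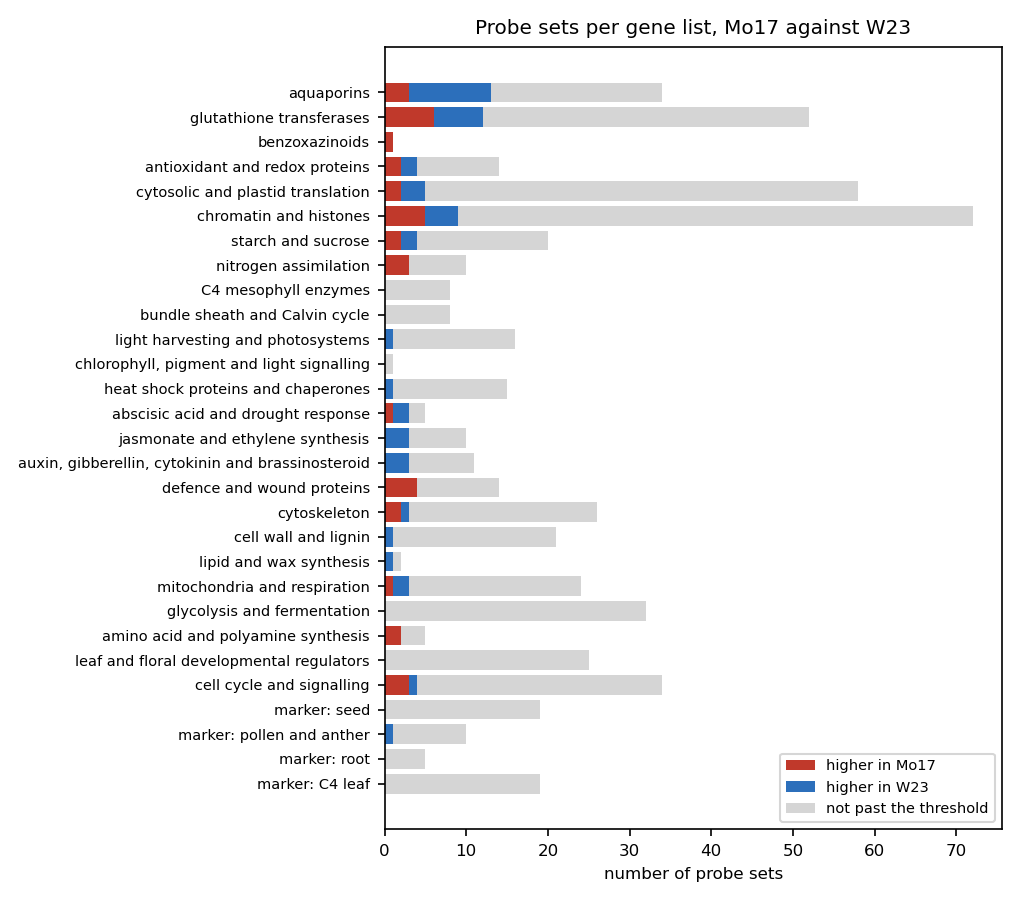
Number of probe sets (horizontal axis) in each gene list that were called higher in Mo17 (red), called higher in W23 (blue) or not past the threshold (grey). Aquaporins hold 13 calls of 34, while the C4 mesophyll, bundle sheath and glycolysis lists hold none.

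Some transcripts were read in 1 line only, that is, above background on all 6 arrays of that line and at or below it on all 6 of the other. This held for 74 probe sets in Mo17 and 77 in W23, of which 70 and 74 were called. Many were dim, with a median signal of 50.8 in Mo17 and 39.6 in W23. The lowest were 21.2 and 18.1, close to the background of 16.7. Of the Mo17 ones, 22 had a signal over 100, and of the W23 ones 15. Named ones in Mo17 were his1, mbd111, siaf244694b, LOC541887 and LOC100101528, and in W23 x34.3 and sh2. The siaf244694b probe set had 51.3, 99.3 and 52.9 in Mo17 and 13.5, 12.9 and 13.7 in W23, at least 3.85-fold apart. The x34.3 probe set, which carries a shared-probe suffix, had 3.2, 4.7 and 1.4 in Mo17 and 26.4, 34.8 and 45.9 in W23, at least 2.07-fold apart. The other probe set of x34.3 had a log2 difference of -0.11 and did not pass. Of the 74 read in Mo17 only, 34 were above background in both B73 and Wf9 and 20 in neither, and of the 77 in W23 only it was 31 and 27. Without array 1 of B73 replicate 3 these were 37 and 20, and 31 and 27.

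Calls were also found in probe sets with no gene name in the table used here. The 2 with the most negative log2 differences were high in all W23 replicates and low in all Mo17 replicates. Zm3.1495.1.A1_s_at had 45.8, 33.4 and 32.8 in Mo17 and 3216, 3595 and 3623 in W23, 94.4-fold lower in Mo17 (log2 difference of -6.04 ± 0.27 (SE) at an adjusted p of 5.27e-08). Zm3.6656.1.A1_at had 8.0, 4.0 and 3.75 in Mo17 and 750.2, 687 and 749 in W23, at least 43.6-fold apart.

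In the other direction, Zm3.7106.1.A1_at had 555, 672 and 388 in Mo17 and 1.35, 2.9 and 1.35 in W23, at least 31.4-fold apart, and Zm3.3503.1.A1_at had 510.0, 477 and 295 in Mo17 and 3.85, 3.8 and 6.5 in W23, at least 24.8-fold apart. W23 was at background in all replicates of both.

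Of 166 named genes with more than 1 probe set, 131 had no call, 15 had all probe sets called, 20 had some, and 0 had calls in opposite directions. Probe sets of 1 gene can share sequence and are not independent. Of the 618 probe sets called and at least 2-fold apart, both B73 and Wf9 lay nearer to Mo17 in 192 (31.1%) and nearer to W23 in 191 (30.9%). B73 lay nearer to Mo17 and Wf9 nearer to W23 in 128 (20.7%), and the reverse held in 107 (17.3%). Without array 1 of B73 replicate 3 the 4 counts were 197, 190, 129 and 102. With all arrays, the even split of the first 2 counts did not hold within a direction. Of the calls higher in Mo17, both B73 and Wf9 lay nearer to Mo17 in 128 and nearer to W23 in 73. Of the calls lower in Mo17 it was 64 and 118.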

How the data were processed

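The authors deposited 1 table of probe set intensities on a linear scale for 24 arrays and 8475 probe sets, made with MAS5 and GCOS per the submitters' processing notes. Software versions, the scaling target and detection calls are not stated there. Arrays were rescaled to a common 2% trimmed mean, 129 control probe sets were dropped, and exact zeros (213, none on the Mo17 and W23 arrays) were treated as missing. The log2(signal + 16) values of the 2 arrays of an RNA were averaged, and all 12 replicates of the 4 lines were fitted with limma 3.58.1 in R 4.3.3 (lmFit, then eBayes with trend) on line alone. The background signal is the 99th percentile of 44 unspiked controls. The number of arrays limits the precision. P-values treat the labels' 3 biological replications as separate samples.

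Names came from the platform annotation, with symbols updated from the Zm-B73-REFERENCE-NAM-5.0 genes. Of 862 annotated probe sets 838 matched it, and 7613 are unnamed here. The text names genes from among the 15 genes per direction with the largest called difference without overlap, up to 3 members per list by p, the 2 brightest per marker list and 2 unnamed probe sets per direction. Not all of them are described, and 1 result is not reported here. Other called list members were added after their values were seen. Members and lists were chosen with earlier results of these data known. The fit was tested on simulated data. Alternatives were 2 other pseudocounts, scaling, filters, weights, single technical arrays, merged or left-out replicates and a replicate block.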

Additional observations from a re-analysis of the deposited data

How the results depend on the processing

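The comparison was rerun under 22 alternatives, 1 of them (W23 replicates 2 and 3 as 1 replicate with the 2 lines fitted alone, 934 calls) chosen after seeing the data. Of the 105 called named probe sets, 61 kept their call in each alternative in which they were tested, 16 lost it in 1 to 3 and 28 in 4 or more, and none changed sign. Of the 30 named genes picked for the largest called differences without overlap, 28 kept their call throughout, the exceptions being aldh5 and ZmPIP2-2. Genes that did not pass in the main fit, such as xet1 (1.82), were not among the 30. Array weights raised the calls from 1159 to 2148, with 1147 higher and 1001 lower in Mo17. A pseudocount of 64 left 189 calls of at least 2-fold in each direction, since it shrinks differences. Technical array 2 alone gave 115 probe sets read in Mo17 only, where fewer arrays had to meet the rule. Leaving out each replicate in turn gave 836 to 986 calls, 398 to 529 higher and 422 to 467 lower in Mo17, 268 to 312 and 263 to 288 of at least 2-fold, and 78 to 96 read in Mo17 only and 81 to 99 in W23 only. The replicate block gave 1402 calls. The same-numbered Mo17 and W23 deviations from their line means correlated at 0.246, -0.424 and 0.330. The deviations within a line depend on each other, so these values cannot decide whether the replicate numbers pair the samples. Both lines were at background on all 12 arrays for 2144 probe sets (25.7%), which limits what can be read there, and 55 of the calls lie among them.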
